A study of Mus musculus with 2 samples.

Results

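The genes described here encode the nuclear envelope and the nuclear pores. They are the mouse genes whose symbol is Nup followed by a number, with or without further letters, together with 24 named genes of the lamina, the inner and outer nuclear membrane, the pore and their remodelling, and were found on the arrays through the RefSeq accession of each probe. The rule gave 45 genes, 28 of the pore and 17 of the lamina and membranes, and 44 of them were measured in both samples, among 14771 genes measured in all. Whole-embryo RNA from mouse at E7.5 gave 1 *Dullard+/-* and 1 *Dullard-/-* sample (both labelled C57BL/6, with no treatment), and each was hybridised to 1 array of a 1-colour Agilent whole-genome design. How many embryos went into a sample is not stated. Both genotypes carry at least 1 mutated *Dullard* allele, and no wild-type sample was used here. The study made a null allele without any exon and a *LacZ* allele without part of them, and the sources used here do not say which of them was in the arrayed RNA.

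The nuclear envelope is a double membrane that encloses the chromatin. On its inner face lies the lamina, a meshwork of lamins, to which proteins of the inner membrane are bound. Nuclear pores cross both membranes and carry proteins and RNA in and out of the nucleus, and SUN and nesprin proteins join across the envelope into the LINC complex, which ties the nucleus to the cytoskeleton. Dullard (Ctdnep1) is a phosphatase of the nuclear envelope and endoplasmic reticulum that activates lipins, enzymes of glycerolipid synthesis. In budding yeast, loss of its counterpart expands the nuclear envelope. Whether transcripts of the envelope and the pores differ between the samples is the question this comparison addresses.

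The 44 measured genes differed little between the samples. Signals were scaled to the 75th percentile of each array (286 in the *Dullard+/-* and 264 in the *Dullard-/-* sample, in background-subtracted scanner units), and all log2 fold changes are *Dullard-/-* over *Dullard+/-*. The median log2 fold change was -0.03, with 19 genes above 0 and 25 below it. The median over all measured genes was 0.01, with 7678 above 0 and 7093 below it. Of the 44 genes, 40 (90.9%) lay within 0.32 of 0, where 0.32 corresponds to a signal 25% higher, against 78.0% of all genes. *Nup210l* was the only one at least 1.5-fold higher (over all genes, 3.92% were), and 0 were at least 1.5-fold lower (3.37% of all genes). By the smaller step of 0.32, 3 were higher (*Nup210l*, *Lemd2* and *Sun2*) and 1 was lower (*Nup62cl*), where 11.5% and 10.5% of all genes were. A single sample per genotype allows no test, and the values describe the samples that were arrayed. The error given with a log2 fold change comes from probes spotted several times: it is their SD at a similar signal, divided by the root of the number of spots and probes behind the gene. It ranged from 0.01 to 0.25, with a median of 0.05, and holds no spread between embryos. The pooled SD between different probes of a gene was 0.19 over the 14 genes here that have several measured probes and 0.29 over 3747 genes of the whole array.

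**Figure D1:**
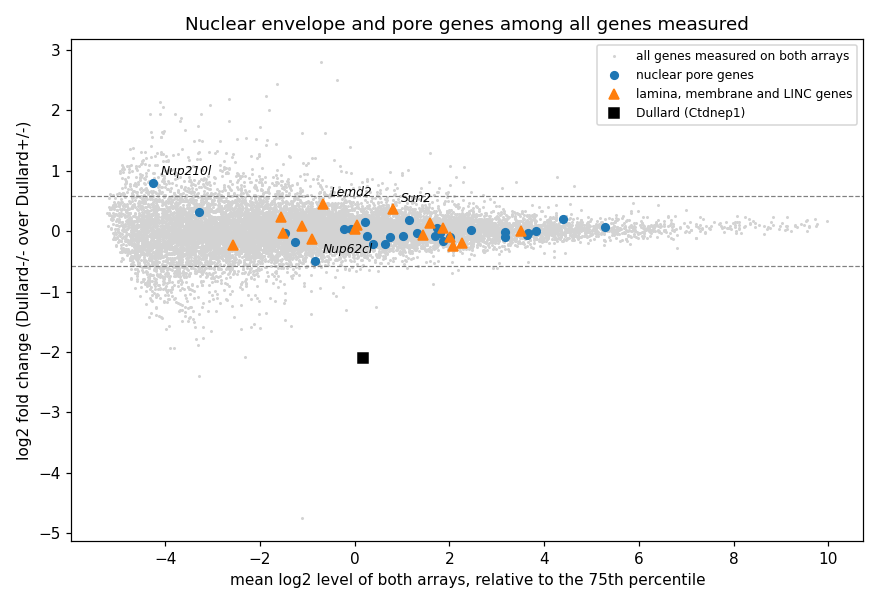
The vertical axis is the log2 fold change of *Dullard-/-* over *Dullard+/-* and the horizontal axis the mean log2 level on both arrays relative to the 75th percentile, with 1 sample per genotype. Circles are nuclear pore genes, triangles lamina, membrane and LINC genes, the square is *Dullard*, small points are all 14771 measured genes, and dashed lines mark 1.5-fold; of the 44 genes only *Nup210l*, at 0.80, lies outside them.

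Many of these genes were bright, and bright genes differed less. Among the 5257 genes above the 75th percentile on both arrays, 4.77% were higher and 2.15% lower by 0.32 or more. Of the 29 nuclear envelope and pore genes in that range, 1 (*Sun2*) was higher and 0 were lower by as much. In that range 96.6% of them and 93.1% of all genes lay within 0.32 of 0, so the share near 0 was closer to that of all genes than over the whole set. The *Dullard* probe (NM_026017) gave 672 and 144, in the order of *Dullard+/-* and *Dullard-/-*, and its log2 fold change of -2.11 ± 0.06 was far outside the range of the 44 genes. The 144 of the *Dullard-/-* sample was still well above background, whereas in the study neither in situ hybridization nor Q-PCR found *Dullard* mRNA in *Dullard-/-* embryos of this stage. The null allele lacks every exon. For the *LacZ* allele, where the probe lies relative to the deleted exons was not determined. The source of the remaining signal was not tested. Tissues of the embryo were measured on both arrays, with 5 of 5 epiblast, 8 of 8 mesoderm and 8 of 8 visceral endoderm markers above background. Their levels were not all alike. Of the mesoderm markers, 2 were at least 1.5-fold higher (*Mixl1* at 1.39 and *Kdr* at 0.64) and 2 lower (*T* at -1.19 and *Msgn1* at -1.88). The *Kdr* probes gave 273 and 537 (1.09) and 1275 and 1353 (0.20), so its place past 1.5-fold rests on the dimmer probe. Among the epiblast markers *Fgf5* was higher (0.89), and 0 visceral endoderm markers passed 1.5-fold. Of 7 trophoblast markers, 6 were on the array and 5 were above background in both samples. Past 1.5-fold were *Prl3d1*, higher at 1.07 on a dim probe (17.4 and 33.8), and *Ascl2*, lower at -0.74 (120 and 66.5). Of 5 decidua markers 2 were above background in both, and the decidual *Prl3c1* was above it on a different probe in each. Of 5 genes listed as definitive erythroid markers, 4 were on the array. In the *Dullard+/-* sample 4 were above background, and in the *Dullard-/-* sample 2 (*Hba-a1* and *Alas2*), with summed signals of 1.31 and 0.579 times the 75th percentile. Whether these signals came from maternal blood or from cells of the embryo was not tested. The part of tissue composition in the values below was not tested. In RNA of whole embryos, fewer cells of a type and less RNA per cell cannot be told apart.

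Promoter windows from RefSeq (assembly GRCm38.p6, 250 bases before to 50 after a transcript start) were found for 37 of the 45 genes, 47 windows in all. Their ratio of observed to expected CpG dinucleotides had a median of 0.891, against 0.384 over all 32851 windows, and 78.7% of them were above 0.5 (41.9% of all). The string GGGCGG, the core bound by SP and KLF factors, was in 66.0% of the 47 windows and 35.7% of all, counting both strands. CCAAT, the NF-Y core, was in 46.8% and 37.4%, the ETS core CCGGAAG in 23.4% and 8.86%, the YY1 string AAGATGGCG in 10.6% and 1.40%, and the NRF1 string GCGCATGCG in 6.38% and 1.75%. TATAAA was in 8.51% and 13.6%. A match is a description of the letters and not a bound site. The windows compared were not matched for CpG content and not limited to genes measured here. Whether the shares differ beyond the CpG content was not tested. The windows below belong to the genes with the lowest and the highest log2 fold changes among those with a window. They are shown because genes at opposite ends of the range can be set side by side, and all are CpG-rich, with ratios of 0.797 for *Nup62cl*, 1.09 for *Lbr*, 1.04 for *Nup214* and 1.02 for *Sun2*. Each is read on the strand of its gene, with matches to the 6 strings, on either strand, in capitals. *Nup62cl* is at chrX:140062519-140062818 (minus strand), *Lbr* at chr1:181842352-181842651 (minus), *Nup214* at chr2:31974200-31974499 (plus) and *Sun2* at chr15:79742487-79742786 (minus).
Nup62cl: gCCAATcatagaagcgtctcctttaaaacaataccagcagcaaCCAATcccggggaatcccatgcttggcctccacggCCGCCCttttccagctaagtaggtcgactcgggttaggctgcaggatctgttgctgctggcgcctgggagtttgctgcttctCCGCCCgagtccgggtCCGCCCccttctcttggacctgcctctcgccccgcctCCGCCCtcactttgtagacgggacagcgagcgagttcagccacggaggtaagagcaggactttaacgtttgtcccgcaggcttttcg
Lbr: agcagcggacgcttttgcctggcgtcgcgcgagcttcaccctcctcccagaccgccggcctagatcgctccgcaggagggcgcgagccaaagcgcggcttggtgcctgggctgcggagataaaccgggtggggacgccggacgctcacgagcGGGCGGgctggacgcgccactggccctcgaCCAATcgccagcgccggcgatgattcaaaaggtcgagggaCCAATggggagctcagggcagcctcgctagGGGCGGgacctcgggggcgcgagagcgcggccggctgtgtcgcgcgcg
Nup214: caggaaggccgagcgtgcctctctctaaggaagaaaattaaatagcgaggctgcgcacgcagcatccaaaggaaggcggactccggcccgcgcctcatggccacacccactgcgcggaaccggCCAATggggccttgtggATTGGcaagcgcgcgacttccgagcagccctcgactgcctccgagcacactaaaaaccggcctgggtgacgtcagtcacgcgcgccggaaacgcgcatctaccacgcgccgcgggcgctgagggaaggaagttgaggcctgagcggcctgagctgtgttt
Sun2: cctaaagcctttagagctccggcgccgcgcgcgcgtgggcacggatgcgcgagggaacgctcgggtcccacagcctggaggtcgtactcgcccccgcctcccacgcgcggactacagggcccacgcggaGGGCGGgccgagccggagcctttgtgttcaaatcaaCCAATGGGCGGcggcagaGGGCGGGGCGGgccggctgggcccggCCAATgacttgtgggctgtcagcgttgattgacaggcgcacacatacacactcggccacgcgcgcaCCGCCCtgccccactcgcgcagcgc
CCAAT and GGGCGG alone of the 6 strings were in these windows. *Nup62cl*, *Lbr*, and *Sun2* held both, and *Nup214* held CCAAT alone, once on each strand. In *Sun2* a CCAAT runs directly into a GGGCGG, and further on GGGCGG matches overlap.

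The scaffold of the pore is built from the Y complex, which forms its outer rings, and from the inner ring. Among the 8 genes of the Y complex, 4 were above 0 and 4 below, with a median log2 fold change of 0.00. *Nup107* (NM_134010), which helps to found the complex, gave signals of 5634 and 5973 (0.20 ± 0.04), again in the order of *Dullard+/-* and *Dullard-/-*. *Nup133* (NM_172288), which mouse embryos need for neural differentiation, gave 593 and 621 (0.18 ± 0.06). Both signals were higher in the *Dullard-/-* sample even before scaling. *Sec13* (NM_024206), which also serves in the COPII coat of the secretory pathway, was the lowest of the group, with 403 and 322 (-0.21 ± 0.06). *Seh1l*, shared with the nutrient-sensing GATOR complex, was at -0.09 ± 0.05 over a pair of probes. *Nup85* (-0.06), *Nup160* (-0.03), *Nup43* (0.02) and *Nup37* (0.06) were closer to 0. Each of these 8 genes lay within 0.32 of 0.

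In the inner ring, which anchors the channel to the pore membrane, 4 of 5 genes were below 0 and the median was -0.08. Of all 14771 genes, 7093 were below 0, and a count over 5 genes gives the group no direction. *Nup188* (NM_198304) was the lowest, at -0.21 ± 0.04, but its 3 probes lay up to 1.59-fold apart. The brightest gave 1171 and 747, a log2 fold change of -0.54, and the others gave 302 and 306 (0.13) and 313 and 246 (-0.23). The probes do not share a direction, and the error of the mean does not hold this spread. The *Nup155* probe gave 2668 and 2295 (-0.10 ± 0.05). *Nup93*, a hub to which other inner ring proteins bind, gave 18080 and 16613 on its brighter probe and 50.5 and 42.0 on the other, with a mean of -0.08 ± 0.07. *Nup205* was at -0.03 ± 0.04, and *Nup35* at 0.03 ± 0.05 with probes at -0.10 and 0.16.

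**Figure D2:**
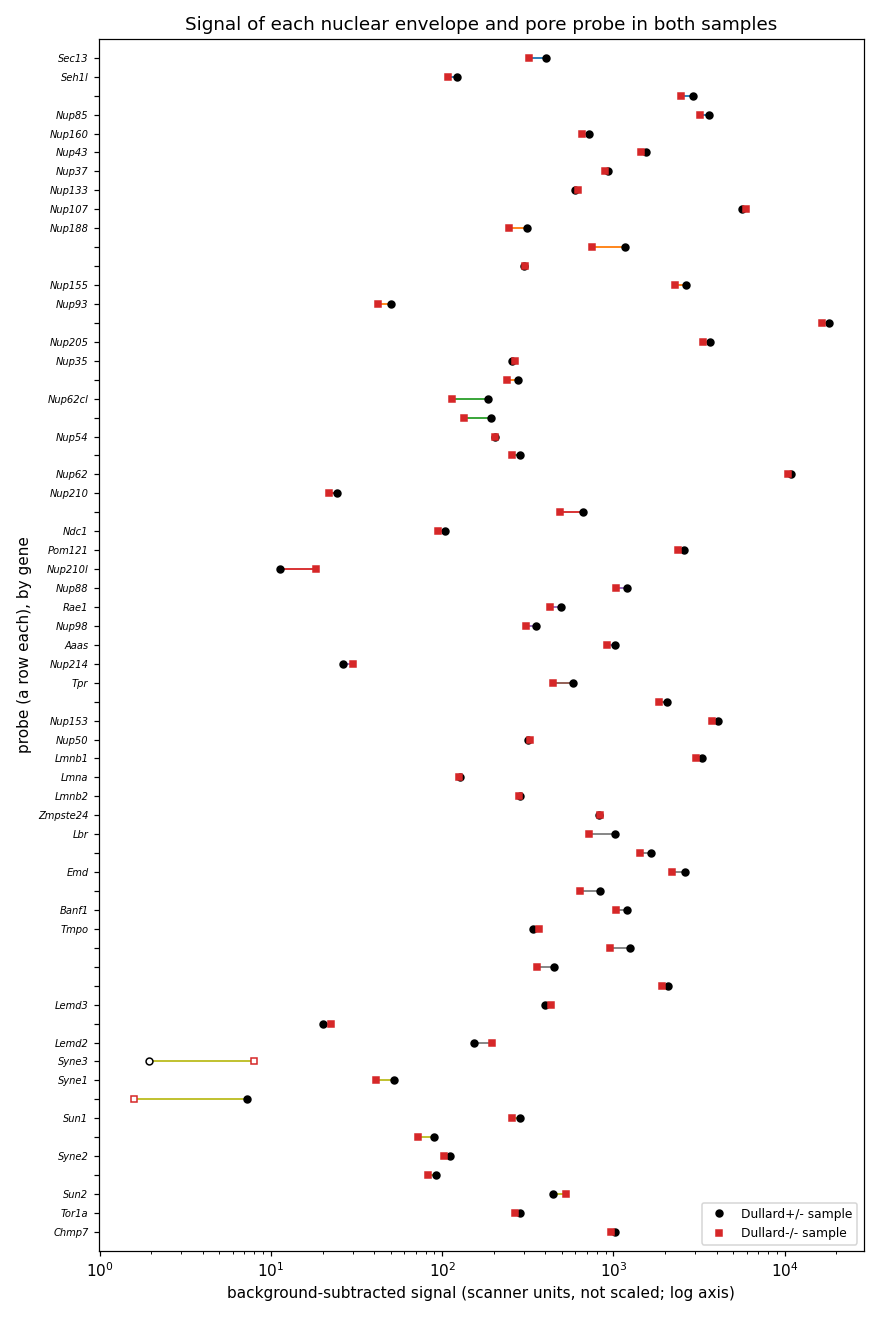
Background-subtracted signal of each of the 63 probes of these genes (horizontal log axis, scanner units before scaling), a row per probe, with the *Dullard+/-* sample as black circles and the *Dullard-/-* sample as red squares; open symbols are not well above background, and lines, coloured by the role of the gene, join the values of a probe. The pairs of symbols mostly touch or nearly touch, and the widest gaps are at *Syne1* and *Syne3*, where signals were below 10.

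The central channel is filled by nucleoporins rich in phenylalanine and glycine repeats, through which cargo passes. *Nup62* (NM_053074), the main channel protein, gave 10840 and 10511, a log2 fold change of 0.07 ± 0.04, and its partner *Nup54* was at 0.04 ± 0.05. *Nup62cl*, an X-linked gene that resembles the C-terminal part of *Nup62*, had the lowest mean of all 44. Its probes gave 192 and 134 (log2 fold change -0.40) and 185 and 114 (-0.59), so that both were lower in the *Dullard-/-* sample. The mean of -0.50 ± 0.06 is 1.41-fold lower. Without scaling between the arrays it was at -0.61, past 1.5-fold, and with normexp background correction at -0.35. With the brightest probe of each gene it was at -0.40, and *Nup188* (-0.54) was then the lowest.

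*Nup62cl* is X-linked, and the samples differed in some X- and Y-linked transcripts. *Xist*, the RNA of the inactive X, gave 344 and 634 on its probes in the *Dullard+/-* sample, and 1.67 and 4.55, not well above background, in the *Dullard-/-* sample. The Y-linked genes *Eif2s3y* (99.8 and 214), *Ddx3y* (89.3 and 132) and *Uty* (29.5 and 52.0 on the brighter probe) were above background in both samples and higher in the *Dullard-/-* sample, while *Kdm5d* was lower (16.4 and 10.3). *Eif2s3x* and *Kdm6a*, X-linked genes that escape inactivation, were at -0.52 and -0.50. The *Dullard+/-* sample thus held *Xist* and Y-linked transcripts together, which usually mark female and male cells. The labels give neither the sex nor the number of the embryos, and the part of mixed sexes or of maternal tissue was not tested. Over 547 X-linked genes the median log2 fold change was -0.02, against 0.01 over autosomal genes, and 51 of the 547 (9.32%) were lower than *Nup62cl*. The other X-linked gene of the set is *Emd*, which encodes emerin, a protein of the inner nuclear membrane. It gave 2610 and 2185 (-0.14) and 832 and 641 (-0.26) on its probes, with a mean of -0.20 ± 0.04, and 24.3% of X-linked genes were lower. The part of sex in these values was not tested. Without *Nup62cl* and *Emd* the median of the remaining 42 genes was -0.02.

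The transmembrane nucleoporins hold the pore in the membrane. *Pom121* gave 2581 and 2372 (log2 fold change -0.01 ± 0.05) and *Ndc1* gave 104 and 94.1 (-0.04 ± 0.09), so neither differed beyond its error. *Nup210*, which serves in muscle and neural differentiation in mouse cells, was at -0.18 ± 0.11, with -0.33 on a probe at 661 and 485 and -0.03 on one at 24.3 and 21.9. *Nup210l*, its relative, known from the testis, was the highest of all 44 at 0.80 ± 0.25, which is 1.74-fold higher. It rests on a single probe (NM_029937) that gave 11.3 and 18.2, where the lowest signals well above background were 6.20 and 7.27. Normexp correction adds an offset that shrinks the differences of dim probes, and gave 0.18. *Sun2* (0.39) was then the highest.

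On the cytoplasmic face, where messenger RNA leaves the pore, 4 of 5 genes were below 0, as were 7093 of all 14771 genes. Here too the count gives the group no direction. *Rae1*, an export factor, gave 496 and 428 (-0.10 ± 0.06), and its partner *Nup98* 351 and 308 (-0.08 ± 0.06). *Nup88* was the lowest at -0.10 ± 0.05, and *Aaas*, whose human counterpart is mutated in triple A syndrome, was at -0.04 ± 0.05. *Nup214*, the partner of *Nup88*, was the highest at 0.31 ± 0.20, with 26.2 and 30.1. These values lay within 0.32 of 0, and that of *Nup214* has the widest error of the group.

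The nuclear basket, which faces the chromatin, has 2 genes with replicate spots and so the best repeat measurements of the pore. *Nup153* (NM_175749) was spotted 9 times. The lowest, median and highest signals were 3867, 4094 and 4394 in the *Dullard+/-* sample and 3543, 3789 and 3936 in the *Dullard-/-* sample. After scaling the spots ran from -0.10 to 0.07, 6 above 0 and 3 below it, with a mean log2 fold change of 0.01 ± 0.01. *Nup50* (NM_016714), a cofactor of import, was spotted 10 times, with 302, 315 and 335 in the *Dullard+/-* sample and 309, 322 and 337 in the *Dullard-/-* sample. Its signals overlapped between the samples before scaling, but after scaling all 10 spots were above 0, between 0.08 and 0.27, with a mean of 0.14 ± 0.02. This is 1.11-fold higher, and without scaling between the arrays the value was 0.03. *Tpr*, the filament of the basket, was at -0.16 ± 0.04, with probes at -0.03 and -0.29.

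**Figure D3:**
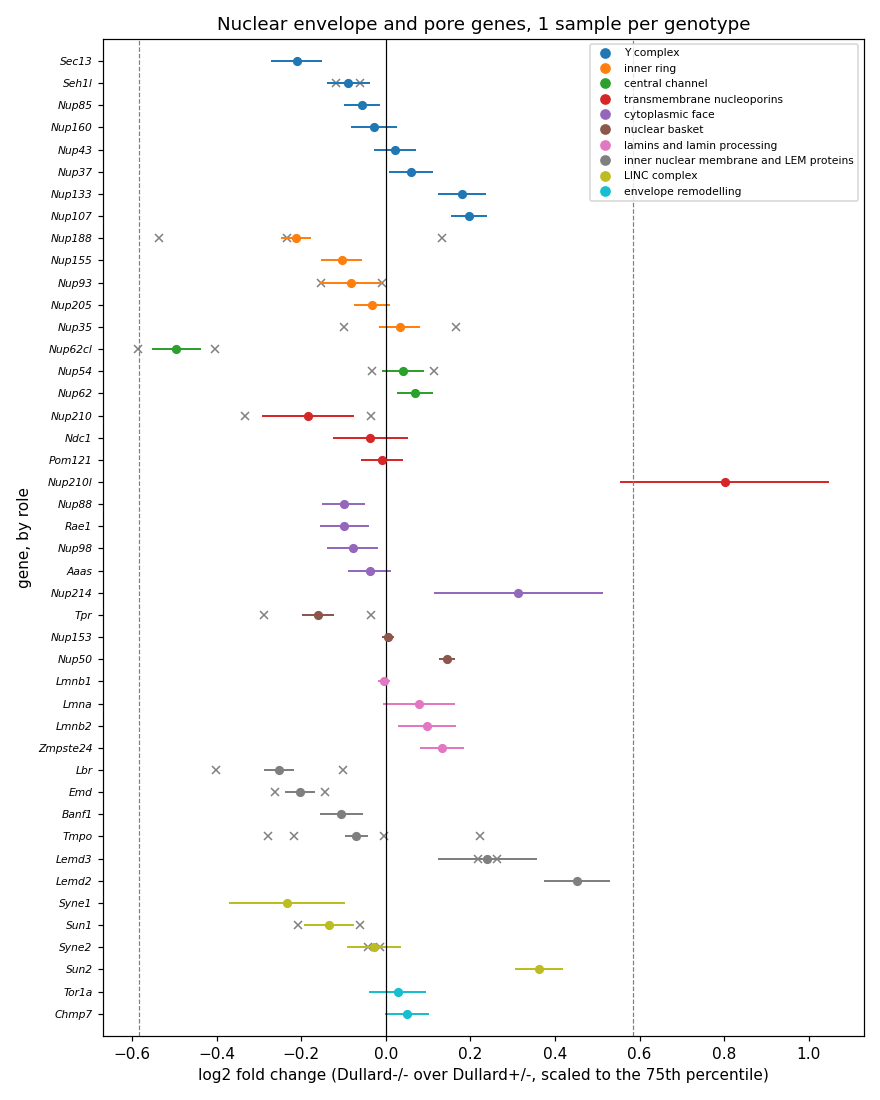
The horizontal axis is the log2 fold change of *Dullard-/-* over *Dullard+/-* for the 44 measured genes, grouped and coloured by role, with 1 sample per genotype. Points are means over the probes of a gene, bars the error from replicate spots, crosses the single probes where a gene has several, and dashed lines 1.5-fold; *Nup210l* (0.80) and *Nup62cl* (-0.50) are the highest and lowest, and the crosses of *Nup188* spread the most.

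The 3 lamin genes lay within 0.10 of 0. *Lmnb1* (NM_010721), a B-type lamin found in nearly all nucleated cells, was spotted 10 times, with lowest, median and highest signals of 3134, 3288 and 3424 in the *Dullard+/-* sample and 2902, 3046 and 3186 in the *Dullard-/-* sample. After scaling 4 spots were above 0 and 6 below, and the mean was 0.00 ± 0.01. *Lmnb2*, the other B-type lamin, gave 284 and 281 (0.10 ± 0.07). *Lmna*, whose A-type lamins accumulate as cells differentiate, gave 128 and 125 on its single probe (0.08 ± 0.09). The difference between *Lmna* and *Lmnb1* was 0.08 ± 0.09, within its error. *Zmpste24*, the protease that trims prelamin A, was at 0.13 ± 0.05, with 821 and 833.

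In the inner nuclear membrane the genes went both ways. *Lbr* (NM_133815), the lamin B receptor and a sterol reductase, gave 1660 and 1430 (-0.10) and 1026 and 718 (-0.40) on its probes, with a mean of -0.25 ± 0.04. It was the lowest of the envelope genes, 1.19-fold lower. *Banf1*, which bridges chromatin and LEM-domain proteins, was at -0.11 ± 0.05. *Tmpo*, which encodes the LAP2 proteins, has 4 probes, from -0.28 to 0.22, with a mean of -0.07 ± 0.03. *Lemd2* (NM_146075), a LEM-domain protein that recruits the sealing machinery in human cells, gave 154 and 194 on its single probe, which is 1.37-fold higher (log2 fold change 0.45 ± 0.08). *Lemd3*, or MAN1, which binds SMADs and dampens BMP and TGF-beta signals, was at 0.24 ± 0.12, with 401 and 431 (0.22) and 20.1 and 22.3 (0.26) on its probes. *Emd* and *Tmpo* also encode LEM-domain proteins. Both *Lemd* genes were thus higher and the X-linked *Emd* lower, while the probes of *Tmpo* went both ways. The difference between *Lemd2* and *Emd*, the highest and lowest of them, was 0.66 ± 0.09 by the error from replicate spots. That error leaves out the spread between probes of a gene (pooled SD 0.29 for a single probe).

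In the LINC complex *Sun1* and *Sun2*, inner membrane proteins with shared functions, lay apart. *Sun2* (NM_001205345) gave 442 and 525 on its single probe, 1.28-fold higher (0.36 ± 0.06), and was higher in the *Dullard-/-* sample even without scaling. *Sun1* gave 286 and 254 (-0.06) and 90.1 and 72.1 (-0.21), with a mean of -0.13 ± 0.06. The difference between them was 0.50 ± 0.08 by the error from replicate spots, which leaves out the spread between probes of a gene (pooled SD 0.29 for a single probe). Nesprin genes encode the outer membrane partners. *Syne2* was at -0.03 ± 0.06 over its probes. *Syne1* was at -0.23 ± 0.14 on a probe with 52.2 and 41.1. A further *Syne1* probe (NM_001079686) gave 7.20, above background, in the *Dullard+/-* sample and 1.58, not well above background, in the *Dullard-/-* sample, and it was too near the background for a bound on its fold. *Syne3*, with 1.94 and 8.0, was not well above background in either sample and has no value.

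The sealing and remodelling of the envelope rest on *Chmp7*, the ESCRT protein that acts at the nuclear envelope, and *Tor1a*, an ATPase of its lumen. *Chmp7* gave 1016 and 973 (0.05 ± 0.05) and *Tor1a* 283 and 267 (0.03 ± 0.07), both within their errors. In *Caenorhabditis elegans* the counterparts of Dullard and Chmp7 act together in closing the envelope. Of 14 further ESCRT-III genes and their ATPase partners, 8 were above 0 and 6 below, where 7678 and 7093 of all genes were. Within 0.32 of 0 were 12 (85.7%), against 78.0% of all genes. *Chmp2a* was the highest at 0.38 ± 0.07 and *Chmp4c* the lowest at -0.41 ± 0.11. The median was 0.04.

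Genes that work with the pore were measured as well. Of 32 nuclear transport receptors and Ran cycle genes all were measured, with a median of -0.03, and 30 (93.8%) lay within 0.32 of 0. This is above the 78.0% of all genes and close to the 93.1% of genes above the 75th percentile, though the 32 were not limited to that range. *Xpo1*, the main export receptor, was at 0.16 ± 0.03. *Xpo7*, an exporter used in red cell maturation, was highest at 1.11, but its probes gave 16.1 and 62.8 (2.07) and 291 and 299 (0.15), so the larger value rests on the dimmer probe. *Tnpo2*, an import receptor, was the lowest at -0.36 ± 0.17. Of 25 further pore and envelope genes, 23 were measured, 11 above 0 and 12 below. Within 0.32 of 0 were 20 (87.0%), against 78.0% of all genes. They include *Nupl1* and *Nupl2*, nucleoporins whose symbols in the RefSeq table fall outside the rule, at -0.26 ± 0.06 and -0.01 ± 0.08. They also include *Sun5* (0.44 ± 0.23), *Mcm3ap* (0.40 ± 0.24) and *Gle1*, an mRNA export factor, at 0.40 ± 0.12 with probes at 0.12 and 0.67. *Tor1b*, a relative of *Tor1a*, was the lowest at -0.32 ± 0.10. Genes of replication and of mitosis, which takes the envelope apart and rebuilds it, had a median of 0.08 over 18 genes. Of these, 17 (94.4%) were within 0.32 of 0, against 78.0% of all genes and 93.1% of genes above the 75th percentile. The 18 too were not limited to that range. *Bub1*, a checkpoint kinase, was the exception at 0.42 ± 0.02.

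Of the genes nearest to *Dullard* in function, *Cnep1r1*, its regulatory subunit, was at -0.16 ± 0.04, with probes of 1142 and 989 and of 513 and 406. *Lpin2* (26.3 and 32.7) was at 0.43 ± 0.20 and *Lpin3* (67.6 and 51.3) at -0.29 ± 0.12. *Lpin1* was not well above background in either sample.

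**Figure D4:**
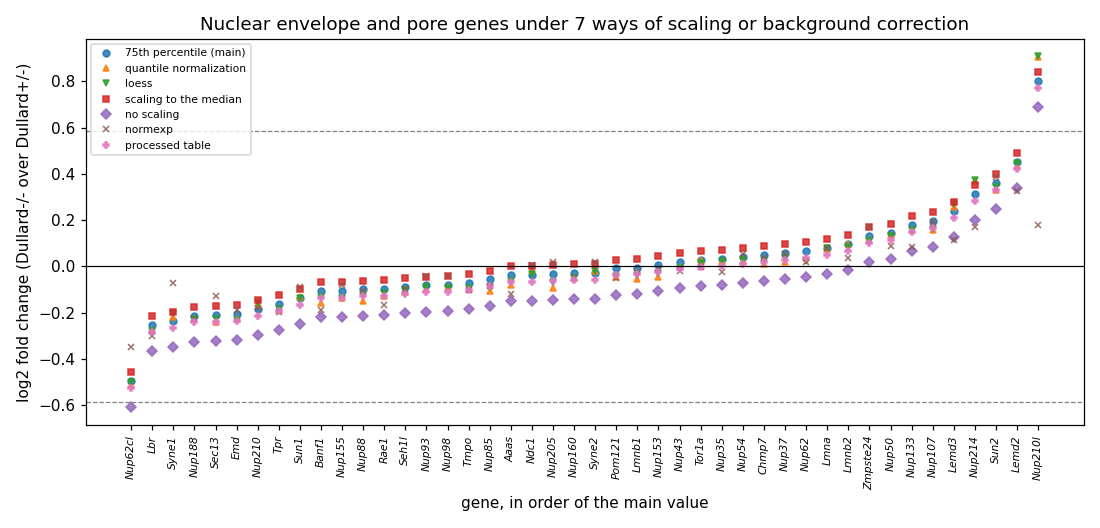
The vertical axis is the log2 fold change of *Dullard-/-* over *Dullard+/-* and the horizontal axis lists the 44 genes in order of the value with 75th percentile scaling; symbols are 7 ways of scaling or background correction, with 1 sample per genotype and dashed lines at 1.5-fold. *Nup62cl* passes the lower line without scaling (-0.61), and *Nup210l* passes the upper line in each setting but normexp (0.18).

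The direction of the small differences followed the scaling. Over the 7 ways of scaling or background correction, 19 genes were below 0 throughout, 9 were above 0 throughout (*Lemd2*, *Sun2*, *Nup214*, *Lemd3*, *Nup107*, *Nup133*, *Nup50*, *Zmpste24* and *Nup210l*) and 16 changed sign. The 16 include all 3 lamin genes, *Nup153* and *Nup62*. No scaling, scaling to the median and the processed table move every gene by nearly the same amount, so a changed sign says only that a value lay within that shift of 0, and nothing particular to the gene. The shifts were uneven: the median over all measured genes was 0.01 in the main setting, -0.10 without scaling and 0.05 with scaling to the median. Staying below 0 throughout was therefore easier than staying above it. These sign counts were not made over all genes, and 19 against 9 gives the set no direction.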

How the data were processed

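As deposited by the authors, the values are linear spot intensities, from which Agilent Feature Extraction 10.10 had subtracted the background. A second deposited table holds the same signals times a constant per array (4.91 and 5.20) and served as an alternative. The sources used here do not say what set the constants, and they name different amplification kits.

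Control spots and 206 of 43020 spots with an outlier mark were dropped. None was saturated. Log2 signals were taken relative to the 75th percentile of each array. After averaging the spots of each probe, a gene was given the mean of those probes that both arrays measured well above background. The study also averaged the signals of a gene, but states neither a background filter nor a log2 scale for it. RefSeq accessions (GRCm38.p6) named 30235 spots. The replicate error pools the 40 replicated probes nearest in signal. The steps were tested on simulated arrays, with the same noise on every spot and the same background marks on both arrays. Background marks that differ between arrays and the larger error of dim probes were therefore not tested.

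No test was run with 1 sample per genotype. The genes and lists were chosen with earlier results of these data known. Named are genes past 1.5-fold, the highest and lowest of each role, and those with probes over 1.5-fold apart or above background on 1 array. The lamins, *Lbr*, *Emd*, *Sun1* and *Sun2* are named as well. Of each further list, up to 4 genes of the largest absolute log2 fold change are named. *Xpo1*, *Nupl1* and *Nupl2* were named outside that choice. The X- and Y-linked genes were added after their values were seen, and others outside the rule are named to account for all members. Alternatives were quantile, loess (span 0.3), median and no scaling, normexp (offset 50), the brightest probe, dim probes kept, the mean of linear folds and the processed table. Normexp used median signals, since the columns hold no mean signal. The tools were limma 3.58.1 in R 4.3.3, and Python 3.11.15 with pandas 2.3.3 and numpy 2.4.6. Signals are single values per array, so the number of arrays limits the precision.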

Additional observations from a re-analysis of the deposited data

How the results depend on the processing

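The medians and the counts past 1.5-fold moved under few of the alternatives. Without scaling between the arrays the median log2 fold change was -0.14 over all 44 genes, -0.15 over the pore genes and -0.10 over the lamina, membrane and LINC genes. The median over all measured genes was then -0.10. Leaving out the scaling moves every gene by the same amount, so the set lies 0.04 below that median with or without it, whatever the data. *Nup62cl* made 1 gene at least 1.5-fold lower in that setting. With normexp background correction 0 genes were at least 1.5-fold higher. Without a filter on dim probes 2 were higher (*Nup210l* and *Syne3*) and 1 lower (*Syne1*), each at signals near the background. Chosen after seeing the data, leaving out every gene with a probe under a signal of 100 left 35 genes and 0 at least 1.5-fold higher, and leaving out the X-linked genes changed neither count. Over the other settings the median stayed between -0.06 and 0.01. Of the 44 single values, 40 moved by more than their error without scaling, 18 with normexp and 10 with the brightest probe. The 40 are the genes whose error was below the common shift, so that count says nothing particular to a gene. Signals below 100 limit 9 of the 44 genes.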
